A study of Mus musculus with 18 samples.

Results

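The immunoglobulin variable (V) segments are the gene pieces that encode most of the antigen-binding part of an antibody chain. They were taken as every gene that the deposited table types as an immunoglobulin V gene, and they number 140 of 10897 genes. Of these, 64 are heavy chain segments (Ighv), 73 are kappa light chain segments (Igkv) and 3 are lambda light chain segments (Iglv). The GENCODE M21 annotation of build GRCm38 holds 113, 100 and 3 such genes. The table keeps genes with an FPKM (a level scaled to gene length and library size) of 1 or more in 15 or more libraries. Rarely used segments are therefore not analysed here. A segment used in only a few libraries, or below this level in a whole group, is left out as well. Each segment is given by its level in CPM (counts scaled to library size) and by its share, the percentage of all V counts of its chain in a library.

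A B cell builds its antibody genes by V(D)J recombination, which joins a single V segment to a joining (J) segment and, in the heavy chain, to a diversity segment in between. The daughters of that cell keep the joined segments, so the V transcripts of a tissue reflect which V segments its plasma cells use. A share does not count lineages, since different B cells can join the same V segment. Plasma cells of the gut wall secrete mostly IgA, and their number is known to depend on the microbes of the gut.

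Colorectal tissue of male C57BL/6J mice aged 10 weeks was sequenced as ribosomal RNA-depleted, strand-specific libraries of total RNA, with 6 libraries in each of 3 groups. The sample characteristics give Control as wild-type mice with a specific pathogen-free flora (SPF) and colorectal cancer induced by azoxymethane (AOM), whereas both other groups were germ-free, GF-AOM receiving AOM alone and GF-AOMS receiving AOM with cigarette smoke. The treatment protocol instead calls the same groups normal controls, an AOM model and a model of AOM plus smoke. SPF housing is what the growth protocol gives for all mice. Both readings separate GF-AOMS from GF-AOM by smoke, while the labels do not settle whether Control mice received AOM or whether the GF mice lacked microbes. Since no label states that the 6 libraries of a group are 6 different mice, the p-values refer to the spread among these libraries. A library is named below by its group and replicate number.

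Library totals ran from 48953539 to 79233656 counts. The markers of colon epithelium were all measured (6 of 6 genes), with a summed level of 8029 to 11530 CPM in Control, 6008 to 8278 CPM in GF-AOM and 5570 to 9456 CPM in GF-AOMS. Hoxa13, a homeobox gene of the distal colon, was under 10 CPM in Control 3, 4, 5 and 6 and above 10 CPM in the other 14 libraries. For comparisons with Control, the median log2 differences, the counts of called segments and Ighv10-3 are therefore also given with a term for these 4 libraries. The counts of called segments are also given without them. All 4 are Control libraries, so either way GF-AOM and GF-AOMS are compared with Control 1 and 2 alone. Other single segments are given without this term.

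The lambda chain is shown first because 2 of its 3 segments are so alike that read assignment bears on their values. The coding exons of Iglv1 and Iglv2 differ at 9 of 305 bases (97.05% identity), and capitals mark the differing bases within the last 300 bases, 5′ to 3′ on the minus strand of GRCm38. The stretches lie at chr16:19085017-19085316 for Iglv1 and chr16:19260401-19260700 for Iglv2, taken from the GENCODE M21 transcripts.
Iglv1: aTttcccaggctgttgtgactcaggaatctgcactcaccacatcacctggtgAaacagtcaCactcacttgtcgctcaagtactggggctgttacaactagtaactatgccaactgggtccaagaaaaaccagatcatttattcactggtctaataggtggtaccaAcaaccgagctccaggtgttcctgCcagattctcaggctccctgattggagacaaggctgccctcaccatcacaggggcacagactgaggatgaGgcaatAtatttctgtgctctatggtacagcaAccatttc
Iglv2: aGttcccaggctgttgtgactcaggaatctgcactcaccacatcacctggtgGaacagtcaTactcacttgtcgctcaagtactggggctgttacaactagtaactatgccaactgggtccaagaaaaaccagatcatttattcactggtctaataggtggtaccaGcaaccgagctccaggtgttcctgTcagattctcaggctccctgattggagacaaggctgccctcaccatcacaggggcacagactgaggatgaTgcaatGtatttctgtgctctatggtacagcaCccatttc

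The leading kappa segments form a similar pair. Igkv1-110 and Igkv1-117 differ at 10 of 313 bases (96.81% identity), which capitals mark again, at chr6:68270968-68271267 and chr6:68121528-68121827 on the plus strand.
Igkv1-110: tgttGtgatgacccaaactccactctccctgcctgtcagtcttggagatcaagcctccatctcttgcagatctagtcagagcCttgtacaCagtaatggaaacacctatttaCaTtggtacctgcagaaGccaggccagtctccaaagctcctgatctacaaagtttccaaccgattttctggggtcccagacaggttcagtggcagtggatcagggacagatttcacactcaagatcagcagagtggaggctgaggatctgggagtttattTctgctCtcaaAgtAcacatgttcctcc
Igkv1-117: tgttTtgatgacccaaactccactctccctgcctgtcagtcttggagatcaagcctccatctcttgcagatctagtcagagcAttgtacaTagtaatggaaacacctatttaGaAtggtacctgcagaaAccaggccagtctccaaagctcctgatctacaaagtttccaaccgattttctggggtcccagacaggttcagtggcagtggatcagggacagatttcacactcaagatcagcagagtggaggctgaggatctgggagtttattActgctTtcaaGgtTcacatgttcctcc

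Another 4 segments are shown because each took over 10% of its chain in 1 or 2 libraries and much less in most others. They are Igkv3-2 (chr6:70698768-70699067, plus strand), Ighv10-3 (chr12:114523441-114523740, minus strand), Ighv5-17 (chr12:113859149-113859448, minus strand) and Igkv4-58 (chr6:69500254-69500553, minus strand). Capitals mark the last match of TANTNNTGN, consecutive codons of the form TAN, TNN and TGN that cover the tyrosine and cysteine near the end of V exons, searched on the coding strand only. The match was found in the last 60 bases of 137 of the 140 exons, and overlaps with other motifs were not examined.
Igkv3-2: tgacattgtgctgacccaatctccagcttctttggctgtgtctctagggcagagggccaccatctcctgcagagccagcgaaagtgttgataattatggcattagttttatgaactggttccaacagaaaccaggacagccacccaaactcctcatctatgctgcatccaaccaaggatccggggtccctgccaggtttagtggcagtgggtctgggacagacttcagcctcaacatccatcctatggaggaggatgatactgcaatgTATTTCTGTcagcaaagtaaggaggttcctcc
Ighv10-3: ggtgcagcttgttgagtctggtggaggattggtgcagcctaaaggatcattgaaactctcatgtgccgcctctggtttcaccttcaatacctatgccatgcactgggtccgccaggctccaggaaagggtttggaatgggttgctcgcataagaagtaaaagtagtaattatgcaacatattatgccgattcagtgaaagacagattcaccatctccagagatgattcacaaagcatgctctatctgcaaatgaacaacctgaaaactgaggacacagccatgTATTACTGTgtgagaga
Ighv5-17: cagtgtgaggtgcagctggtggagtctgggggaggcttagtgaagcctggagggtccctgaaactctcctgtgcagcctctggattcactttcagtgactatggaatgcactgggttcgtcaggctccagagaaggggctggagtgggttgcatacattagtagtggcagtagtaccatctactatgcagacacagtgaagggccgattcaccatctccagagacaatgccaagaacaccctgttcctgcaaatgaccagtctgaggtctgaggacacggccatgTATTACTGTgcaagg
Igkv4-58: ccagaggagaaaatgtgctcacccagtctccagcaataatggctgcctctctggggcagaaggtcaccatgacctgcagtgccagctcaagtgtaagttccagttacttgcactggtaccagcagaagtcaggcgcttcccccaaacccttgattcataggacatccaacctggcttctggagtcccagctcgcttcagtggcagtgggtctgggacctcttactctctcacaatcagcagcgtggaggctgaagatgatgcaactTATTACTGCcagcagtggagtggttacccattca

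In 75-base windows, a length chosen because the read length is not given in the sources used here, Igkv3-2 and Ighv10-3 were unique among all annotated V genes and pseudogenes (100% of windows). Iglv1 and Iglv2 were unique in 87.01% of windows and the Igkv1-110 pair in 70.29%. Fewer than 90% of windows were unique for 23 heavy, 28 kappa and 2 lambda segments, whose counts are uncertain where reads can be split between copies.

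The summed level of V segments varied widely between libraries of the same group. V counts made up 0.0564% of all counts in Control 4 and 0.815% in GF-AOMS 3. In bulk tissue, fewer plasma cells and less V RNA per cell cannot be told apart.

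Heavy V segments summed to a lowest, median and highest level of 157.7, 486.4 and 1549 CPM in Control, 418.9, 630.0 and 1471 CPM in GF-AOM, and 166.7, 363.3 and 2230 CPM in GF-AOMS. Kappa V segments summed to 339.5, 1267 and 3113 CPM in Control, 1798, 2160 and 3555 CPM in GF-AOM, and 686.2, 1446 and 4315 CPM in GF-AOMS. Lambda V segments summed to 55.37, 305.6 and 507.2 CPM in Control, 204.7, 326.4 and 490.6 CPM in GF-AOM, and 109.9, 212.0 and 555.0 CPM in GF-AOMS. All 3 chains overlapped between all groups. Control 1, GF-AOM 2 and GF-AOMS 3 were the highest heavy and kappa libraries of their groups, and Control 4 and GF-AOMS 1 the lowest of theirs. The largest gap of group means was in the kappa chain, at 1436 ± 970.7 CPM (SD, n = 6) in Control and 2337 ± 647.3 CPM (SD, n = 6) in GF-AOM, a log2 difference of 0.70. The sums carry no test.

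**Figure D1:**
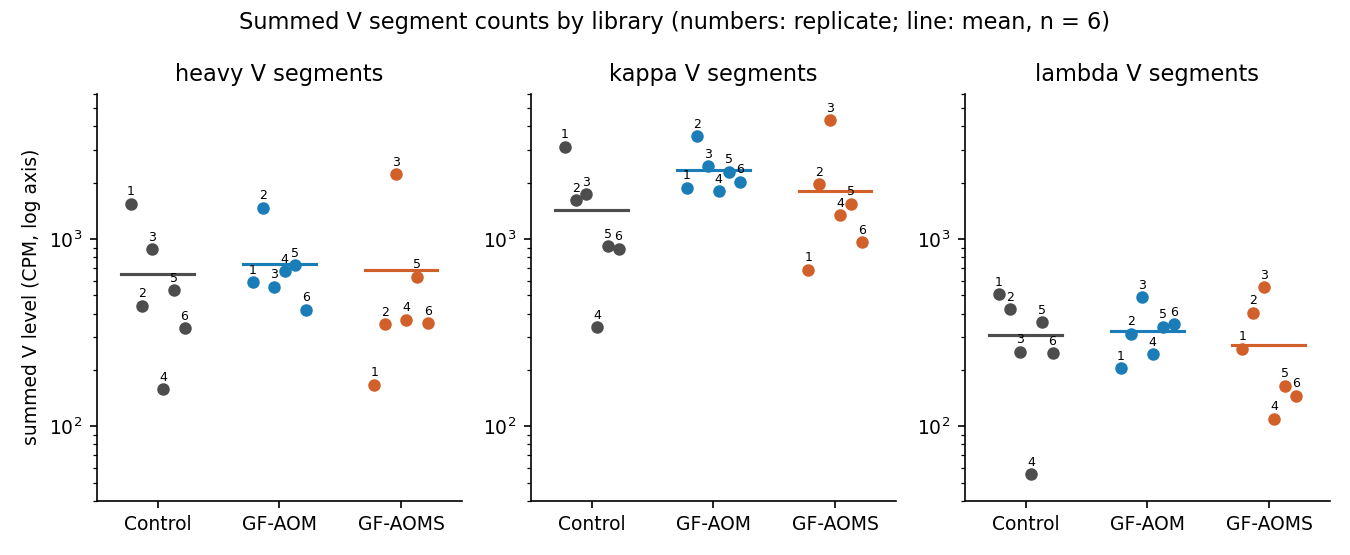
Summed heavy, kappa and lambda V counts of each library in CPM on a log axis, by group, with replicate numbers beside the points and lines for group means. The groups overlap in each chain, and Control 4 lies lowest at 157.7, 339.5 and 55.37 CPM.

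Among the Control libraries the 4 with low Hoxa13 had summed kappa V levels of 339.5 to 1740 CPM, against 1618 and 3113 CPM in the other 2. Their lambda V levels were 55.37 to 361.2 CPM against 423.6 and 507.2 CPM, with no overlap, and their heavy V levels were 157.7 to 881.8 CPM against 441.5 and 1549 CPM. The part of colon position in the group differences was not tested beyond the position term given with the count tests.

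The plasma cell markers (12 of 15 genes measured, among them Jchain, which links IgA into dimers, and Mzb1) summed to 1626 to 5191 CPM in Control, 4740 to 8233 CPM in GF-AOM and 2957 to 8210 CPM in GF-AOMS. B cell markers (6 of 17 measured: Cd37, Cd79a, Cd79b, Fcrla, Spib and Vpreb3) summed to 18.6 to 239.7, 35.8 to 165.6 and 42.4 to 122.2 CPM in the same order. Of the 8 listed genes of germinal centres and of V(D)J recombination, 6 are not analysed here. The measured pair of that list, Mki67 and Rgs13, summed to 67.6 to 153.9, 60.4 to 115.5 and 58.6 to 165.3 CPM. In bulk tissue the cells that express this pair are not known, so the sum is not a measure of germinal centres. T cell markers (6 of 8 measured) summed to 29.9 to 70.3, 34.3 to 133.4 and 41.96 to 144.3 CPM. Smooth muscle markers (4 of 4) summed to 1210 to 3501, 2672 to 4141 and 1485 to 8667 CPM, and macrophage markers (5 of 5) to 153.0 to 391.3, 302.8 to 609.3 and 235.2 to 553.7 CPM. None of the 7 lists, colon epithelium included, held a called gene in any comparison with edgeR. Their part in the V levels was not tested.

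Heavy chain use was spread over many segments. The 6 segments with the highest mean share (Ighv1-81, Ighv3-6, Ighv1-53, Ighv1-26, Ighv5-17 and Ighv2-2) together took 27.5% of heavy V counts, and the same 6 led by share of FPKM, which is per length. The leading segment changed from library to library, and by counts 12 distinct segments led in at least 1 of the 18. It was the same by counts and by FPKM in 17 of 18 libraries.

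Ighv1-81 (chr12:115920279-115920712, minus strand), a member of the large Ighv1 family, had the highest mean share, 6.03% ± 3.06 (SD, n = 18). Its lowest, median and highest share of heavy V counts was 2.64, 4.17 and 12.7% in Control, 3.12, 5.85 and 11.5% in GF-AOM, and 3.89, 5.31 and 11.6% in GF-AOMS. The groups overlapped over nearly their whole range, with Control 2, GF-AOM 4 and GF-AOMS 1 standing high. Ighv3-6 (chr12:114288152-114288582) averaged 4.71% ± 2.15 and was highest in GF-AOMS 2 at 9.49%. Ighv1-53 (chr12:115158403-115158835) averaged 4.45% ± 2.29 and was highest in GF-AOM 4 at 11.7% (95% Wilson interval 11.3 to 12.0%). Ighv1-26 (chr12:114788372-114788805) averaged 4.33% ± 1.65, the smallest SD of the 6, with a range of 2.00 to 8.91%.

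Ighv5-17 (chr12:113859149-113859670) had a high share in a pair of Control libraries. In level its highest library was instead GF-AOMS 3, at 141.6 CPM against at most 55.2 CPM elsewhere. Its share was 16.5% in Control 4 (1330 of 8076 heavy V counts, 95% Wilson interval 15.7 to 17.3%) and 12.5% in Control 2, while the other 16 libraries lay between 1.06 and 6.35%. Ighv2-2 (chr12:113588267-113588702), the measured heavy segment nearest to the J segments at 158.4 kb, had its highest shares in Control. It took 3.58, 5.50 and 13.4% (lowest, median, highest) in Control, 0.645, 1.78 and 3.22% in GF-AOM, and 1.11, 2.63 and 4.33% in GF-AOMS. All 6 Control shares of Ighv2-2 lay above all 6 GF-AOM shares, while GF-AOMS overlapped both. Of its 75-base windows 66.09% were unique, and its nearest relative in the table is Ighv2-5 (97.04% identity).

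By family, the 34 Ighv1 segments took 54.2% ± 5.87 of heavy V counts (SD, n = 18), the 7 Ighv5 segments 11.2% ± 4.52 and the 6 Ighv2 segments 7.88% ± 4.77. Ighv2 took 12.0% ± 5.14 in Control, 4.83% ± 2.06 in GF-AOM and 6.77% ± 3.68 in GF-AOMS (SD, n = 6 each). The Control range of 5.26 to 17.3% overlapped the GF-AOM range of 1.22 to 6.80%. The Ighv10 family, with Ighv10-3, took 0.0730, 0.817 and 2.27% in Control (lowest, median, highest), 1.55, 1.92 and 18.2% in GF-AOM, and 1.18, 2.89 and 3.61% in GF-AOMS, and all 3 groups overlapped. Its mean was 1.09% ± 0.917, 5.00% ± 6.56 and 2.75% ± 0.925 in the same order, so the GF groups rank differently by mean and by median.

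Kappa use was led by a shorter list. The 6 leading segments (Igkv1-110, Igkv1-117, Igkv10-96, Igkv6-23, Igkv3-2 and Igkv10-94) took 33.8% of kappa V counts, and the same 6 led by share of FPKM. By counts, 6 distinct segments led in at least 1 library, with Igkv4-58 (Control 4) among them and Igkv10-94 not. The leading segment was the same by counts and by FPKM in 14 of 18 libraries.

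Igkv1-110, the segment with the highest mean kappa share, took 3.88, 8.47 and 17.3% of kappa V counts in Control (lowest, median, highest), 4.90, 7.21 and 12.8% in GF-AOM, and 5.91, 7.65 and 14.2% in GF-AOMS. Its partner Igkv1-117 took 5.94, 7.61 and 10.7%, 3.55, 6.75 and 11.3%, and 5.73, 7.39 and 10.3% in the same order. Both segments overlapped between all groups, and Igkv1-110 was the more variable, with an SD of 3.76 against 2.04 percentage points over 18 libraries. Igkv10-96 (chr6:68631963-68632442, minus strand) averaged 5.51% ± 2.17 and was highest in GF-AOM 2 at 10.3%. Igkv6-23 (chr6:70260409-70260955, minus strand) averaged 4.74% ± 3.30 and was highest in GF-AOMS 4 at 13.5%. Igkv10-94 (chr6:68704508-68704978, minus strand), 94.63% identical to Igkv10-96, averaged 2.88% ± 1.57.

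By family, the 6 Igkv1 segments took 19.6% ± 5.41 of kappa V counts (SD, n = 18), the 17 Igkv4 segments 16.2% ± 4.59, the 8 Igkv6 segments 12.99% ± 5.09 and the 7 Igkv3 segments 9.61% ± 7.01. Igkv3, the family of Igkv3-2, had the largest SD of these 4, and its highest library was GF-AOM 3 at 34.9%. The Igkv8 family took 8.84% ± 2.19 in Control, 5.21% ± 2.14 in GF-AOM and 5.18% ± 1.35 in GF-AOMS (SD, n = 6 each). Its Control range of 5.53 to 11.8% overlapped the GF-AOM range of 1.88 to 8.40% and the GF-AOMS range of 3.71 to 7.39%.

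Igkv8-24 (chr6:70216858-70217421, minus strand) is named because its shares did not overlap between groups, and it was chosen after its values were seen. It took 1.42, 2.52 and 3.13% of kappa V counts in Control (lowest, median, highest), 0.366, 0.550 and 1.26% in GF-AOM, and 0.356, 0.787 and 1.17% in GF-AOMS. All 6 Control libraries thus lay above all 12 GF libraries. Its levels overlapped, at 9.67 to 50.7 CPM in Control and 4.54 to 44.8 CPM in the GF groups, and with edgeR its log2 difference was -0.84 (SE 0.60, adjusted p = 0.444) in GF-AOM and -1.08 (SE 0.60, adjusted p = 0.375) in GF-AOMS, each against Control. Over all 137 heavy and kappa segments, shares lay entirely lower in GF-AOM than in Control for 2 (1.46%), Ighv2-2 and Igkv8-24, and entirely lower in GF-AOMS than in Control for 1 (0.73%), Igkv8-24. None lay entirely higher in these comparisons, and none separated GF-AOMS from GF-AOM (0%). A share falls when other segments of the chain rise, so it is not a level.

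**Figure D2:**
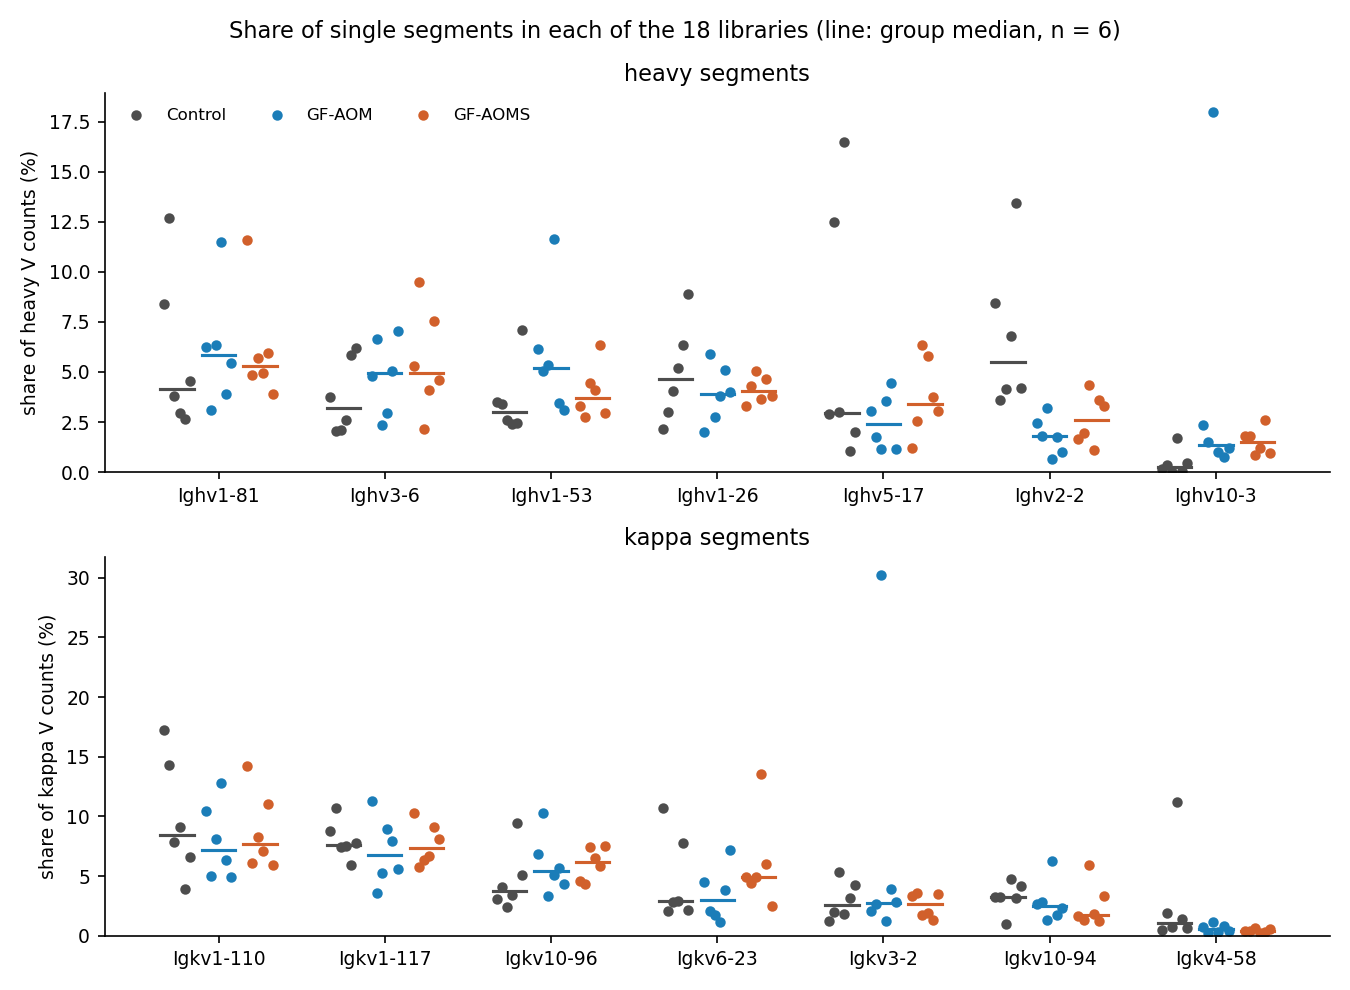
Share of heavy (top) and kappa (bottom) V counts in percent for 7 segments per chain, with a point per library and a line at each group median. Igkv3-2 reaches 30.2% and Ighv10-3 18% in the same GF-AOM library, while the Ighv2-2 shares of Control all lie above those of GF-AOM.

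For some segments the highest share lay far above the segment's usual share. It was at least 5 times the median over 18 libraries for 19 of 64 heavy and 16 of 73 kappa segments, and at least 10 times for 6 and 10. The highest share of a segment fell in a Control library for 54 of the 137 heavy and kappa segments, in GF-AOM for 49 and in GF-AOMS for 34.

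GF-AOM 3 stood apart in 2 chains. Igkv3-2 (chr6:70698449-70699067, plus strand) took 30.2% of its kappa V counts (39622 of 131040, 95% Wilson interval 30.0 to 30.5%), while the other 17 libraries lay between 1.20 and 5.36%. In level this was 744.7 CPM against at most 93.3 CPM elsewhere. Ighv10-3 (chr12:114523441-114523905, minus strand) took 18% of the heavy V counts of the same library (5333 of 29620, 95% Wilson interval 17.57 to 18.45%), against 0.0243 to 2.60% in the other 17. The J segments showed another departure in GF-AOM 3. Igkj4, a kappa J segment, took 59.8% of its kappa J counts (7084 of 11842, 95% Wilson interval 58.9 to 60.7%), against 0.344 to 24.3% elsewhere, and its level was 133.1 CPM against at most 26.2 CPM. Whether these transcripts come from the same cells was not tested, and joined V and J sequences are not analysed here.

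Control 4, the library with the fewest V counts (28294), was led by other segments. Besides Ighv5-17, its highest kappa segment was Igkv4-58 (chr6:69500254-69500786, minus strand) at 11.2% (1954 of 17383, 95% Wilson interval 10.8 to 11.7%), against 0.197 to 1.93% elsewhere. In level Igkv4-58 stood less apart, at 38.2 CPM against at most 31.2 CPM elsewhere. Its kappa J counts also stood apart. Igkj1 took 62.4% of 582 kappa J counts (95% Wilson interval 58.4 to 66.2%), Igkj2 took 1.03% (6 counts, 0.473 to 2.23%) and Igkj4 took 0.344% (2 counts, 0.0943 to 1.24%), while in the other 17 libraries Igkj2 took 18.9 to 41.4% and Igkj4 8.51 to 59.8%. Counts of 0 occurred 3 times, in heavy segments of Control 4 (Ighv5-12, Ighv1-63 and Ighv1-62-3, named after their values were seen), where 0 of 8076 counts allows a share of up to 0.0371% by a limit of 3 counts, and of up to 0.0475% by the upper end of the 95% Wilson interval. The intervals and this limit cover counting error only.

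Other libraries were led by other segments. GF-AOM 4 gave 11.7% of heavy V counts to Ighv1-53 and 11.5% to Ighv1-81. GF-AOMS 4 gave 13.8% to Ighv1-55 (95% Wilson interval 13.4 to 14.3%) and 13.5% of kappa V counts to Igkv6-23. GF-AOMS 6 gave 11.0% of heavy V counts to Ighv9-3, which like Ighv1-55 was chosen after its values were seen. GF-AOMS 3, with the most V counts of all libraries, was led by Ighv2-9-1 (chr12:113769850-113770302) at 7.15%. In GF-AOMS 2, Igkv3-1 (chr6:70703578-70704177), the measured kappa segment nearest to the J segments at 18.4 kb, took 5.86% against at most 0.912% in the other libraries. In level, the highest library stood at over 30 times the median of the other 17 for 6 segments. These were Igkv4-79 (GF-AOMS 3, 50.5 times), Igkv14-130 (GF-AOM 2, 50.4 times), Ighv2-9-1 (GF-AOMS 3, 35.8 times), Igkv9-123 (Control 3, 32.9 times), Ighv3-8 (Control 1, 31.9 times) and Igkv4-74 (GF-AOM 2, 31.1 times), of which Igkv14-130, Igkv9-123 and Ighv3-8 were chosen after their values were seen. All 3 groups thus held such a library. GF-AOMS 3, GF-AOM 2 and Control 1 also had the highest summed heavy and kappa V levels of their groups. These ratios therefore include the total V level of the library. Ighv2-9-1 also reached 88.1 CPM in another library, against 159.3 CPM in GF-AOMS 3.

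**Figure D3:**
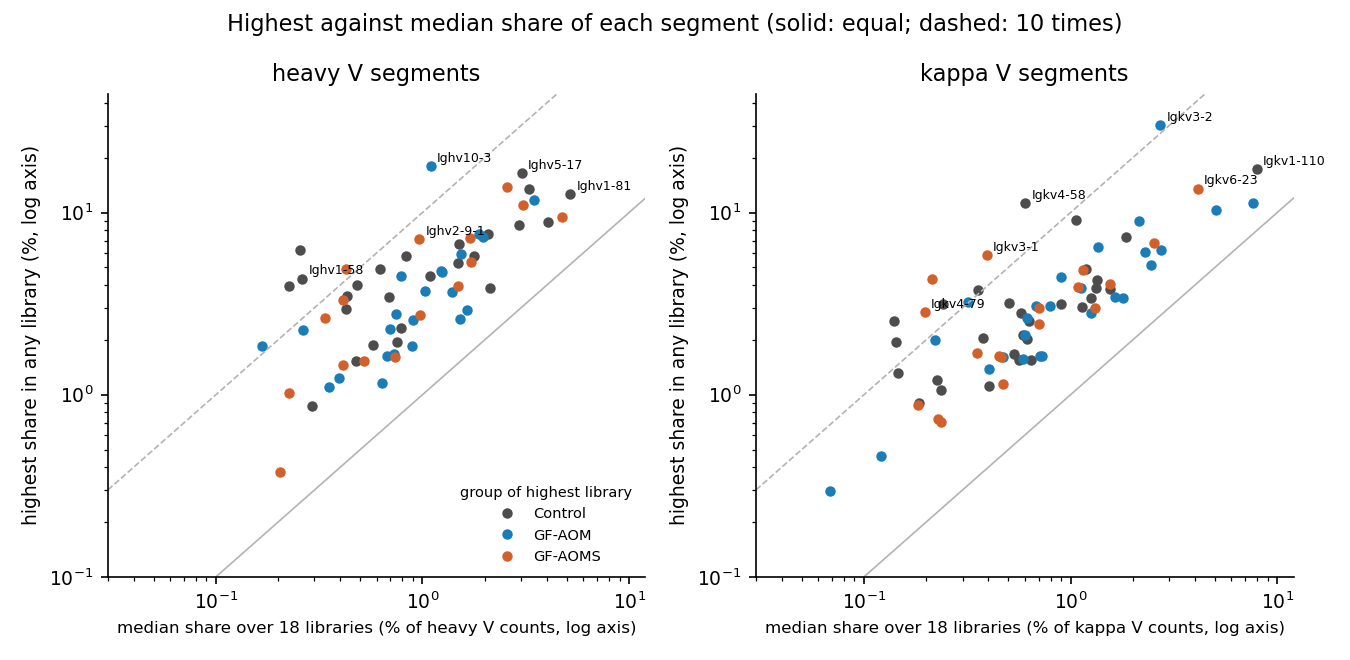
Highest share of each heavy (left) and kappa (right) segment in any of the 18 libraries against its median share, both in percent on log axes, coloured by the group of the highest library. Points above the dashed line, 6 heavy and 10 kappa, have a highest share of at least 10 times their median.

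The evenness of use was summarised by the effective number of segments (the inverse Simpson index), which equals the number of segments when all have the same share and falls when a few dominate. The heavy effective number was 19.1, 23.0 and 31.5 in Control (lowest, median, highest), 17.7, 34.7 and 38.4 in GF-AOM, and 24.9, 28.7 and 31.2 in GF-AOMS. The kappa effective number was 16.1, 26.2 and 31.6 in Control, 8.85, 27.9 and 35.1 in GF-AOM, and 21.5, 26.7 and 35.98 in GF-AOMS. The groups overlapped in both chains, and GF-AOM held both the widest and the narrowest heavy libraries. GF-AOM 3 was the narrowest library in both chains, where 4 kappa segments made up the first 50% of counts against 7 to 13 in the other libraries. Heavy means were 23.9 ± 4.73, 30.2 ± 9.11 and 28.5 ± 2.42 (SD, n = 6), and kappa means 24.7 ± 6.31, 25.4 ± 9.81 and 27.5 ± 5.59, for Control, GF-AOM and GF-AOMS, with no test.

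**Figure D4:**
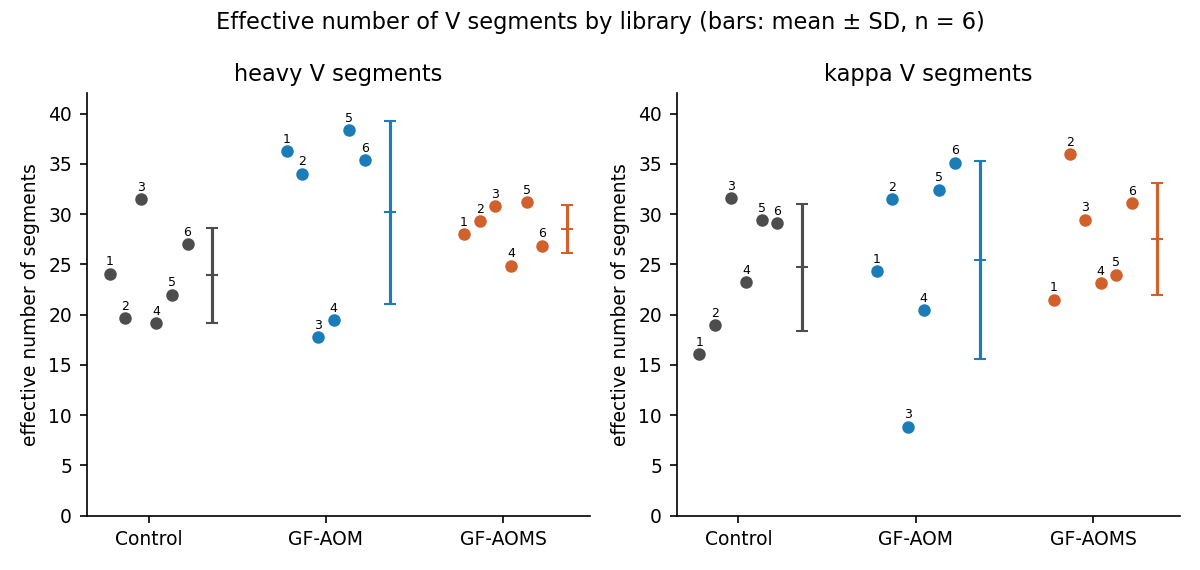
Effective number of heavy (left) and kappa (right) V segments in each library by group, with replicate numbers beside the points and bars for mean ± SD. GF-AOM 3 lies lowest in both panels, at 17.7 and 8.85.

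Profiles were also compared between libraries by their overlap, the sum over segments of the smaller of the pair of shares, where identical profiles give 100%. Heavy profiles overlapped by 64.4% ± 7.08 (SD) over 45 pairs within a group and by 62.5% ± 6.25 over 108 pairs between groups. Kappa profiles overlapped by 65.9% ± 6.57 within and 65.4% ± 6.30 between groups. By pair of groups, heavy profiles overlapped by 58.6% ± 4.93 for Control with GF-AOM, 61.5% ± 3.44 for Control with GF-AOMS and 67.3% ± 6.55 for GF-AOM with GF-AOMS (36 pairs each). Kappa profiles overlapped by 62.6% ± 6.31, 65.7% ± 4.17 and 67.9% ± 7.06 in the same order. In both chains the mean was highest for the pair of GF groups. Within a group, GF-AOMS libraries had the highest mean (69.4% ± 2.79 heavy, 71.5% ± 3.17 kappa, 15 pairs), GF-AOM libraries overlapped by 65.4% ± 8.30 and 63.5% ± 7.92, and Control libraries by 58.3% ± 3.499 and 62.6% ± 3.42. GF-AOM 3 had the lowest mean overlap with the other 17 libraries, 56.2% for heavy and 54.5% for kappa segments. The pairs share libraries, so these values describe the libraries and carry no test.

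Lambda use rested on Iglv1 (chr16:19085017-19085500), which took 86.3% ± 6.56 of lambda V counts (SD, n = 18) and led in every library. Its share was 85.95, 89.96 and 93.1% in Control (lowest, median, highest), 68.1, 84.9 and 95.1% in GF-AOM, and 82.2, 84.6 and 92.8% in GF-AOMS. Iglv2 (chr16:19260401-19260859), its near copy, took 8.99% ± 6.15 and reached 27.6% in GF-AOM 6 (4585 of 16627, 95% Wilson interval 26.9 to 28.3%), against at most 15.3% elsewhere. Iglv3 (chr16:19241207-19241690), at 53.96% identity to Iglv1, took 4.72% ± 3.99 and was highest in GF-AOM 5 at 14.7% and GF-AOMS 2 at 13.5%. All 3 segments overlapped between all groups.

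Lambda V counts made up 18.6% ± 6.11 of light chain V counts in Control, 12.3% ± 3.13 in GF-AOM and 14.4% ± 7.18 in GF-AOMS (SD, n = 6 each). The ranges of 12.6 to 28.3%, 8.09 to 16.6% and 7.56 to 27.4% overlapped, with Control 5 and GF-AOMS 1 the highest. Measured on the constant genes, which encode the rest of the light chain, lambda made up 9.26% ± 3.31, 6.02% ± 1.93 and 7.08% ± 4.41. The V shares were higher than the constant shares in each library, and 100 constant counts came with 95.8 ± 16.0 V counts in the lambda chain, 42.3 ± 7.49 in the kappa chain and 11.9 ± 3.01 in the heavy chain (SD, n = 18). These ratios depend on gene length and on which segments the table holds. Control 1 had the highest ratio and GF-AOMS 1 the lowest in each chain.

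Shares followed position along the heavy locus in proportion to the number of segments. Segments within 1 Mb of the first J segment are 39.06% of the 64 and took 38.4% ± 6.41 of heavy V counts (SD, n = 18), those at 1 to 2 Mb are 35.94% and took 35.3% ± 6.17, and those over 2 Mb away are 25% and took 26.4% ± 5.61. The kappa locus was less even. Its segments at 1 to 2 Mb are 30.14% of the 73 and took 20.01% ± 3.85, between 15.6 and 29.3% in each of the 18 libraries. Those within 1 Mb are 38.36% and took 39.0% ± 6.497, and those over 2 Mb away, which include Igkv1-110, Igkv1-117 and the Igkv10 pair, are 31.51% and took 41.0% ± 4.42. The most distant measured segments, Ighv1-85 at 2570 kb and Igkv2-137 at 3166 kb, took 1.09% ± 0.771 and 0.689% ± 0.489. Kappa segments on the minus strand are 44 of 73 (60.27%) and took 55.6% ± 7.06.

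**Figure D5:**
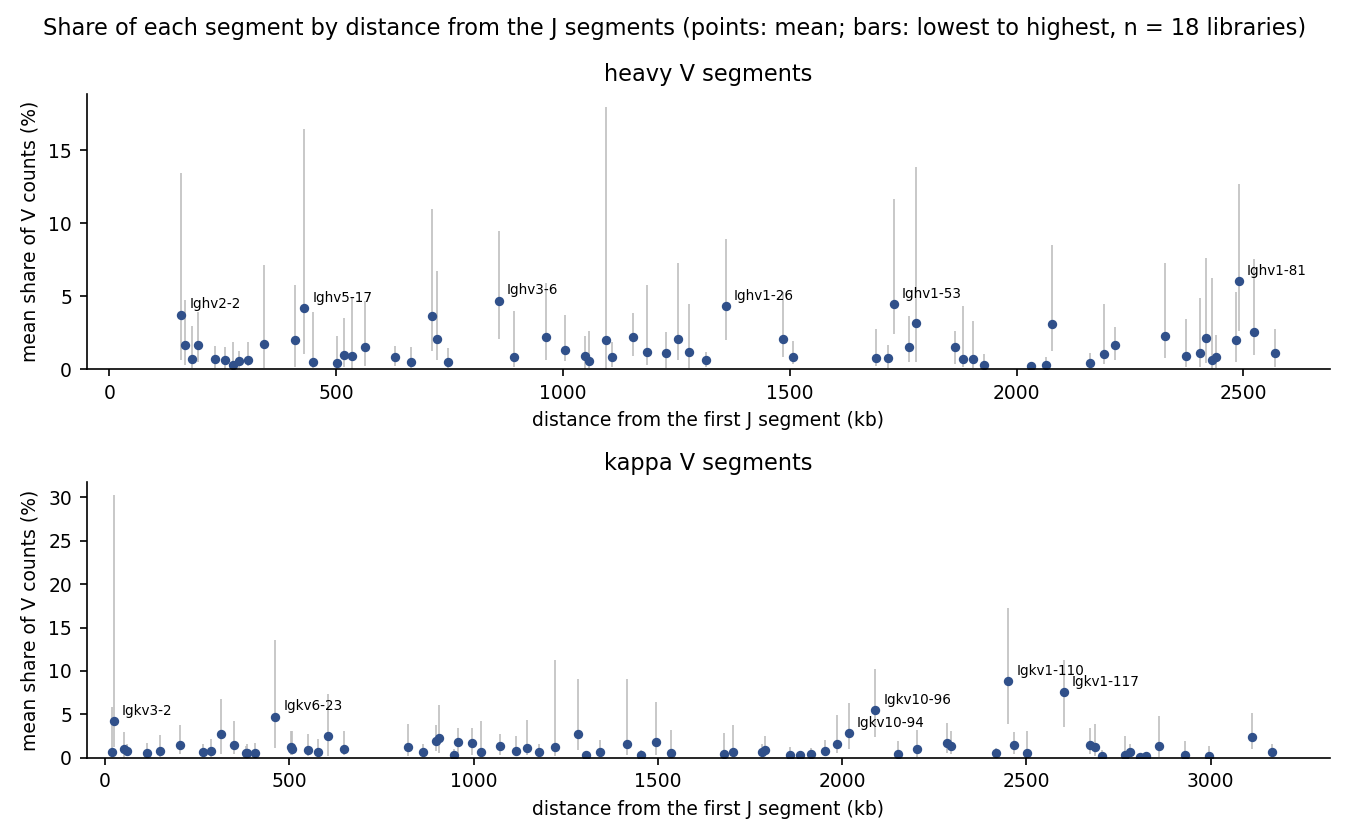
Mean share of each heavy (top) and kappa (bottom) V segment against its distance from the first J segment in kb, with bars from the lowest to the highest of 18 libraries. Of the 6 leading kappa segments, 4 lie over 2 Mb from the J segments and Igkv3-2 lies at 23.5 kb.

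Levels of single segments were then compared between groups with edgeR's quasi-likelihood test over all 10897 genes, with Benjamini-Hochberg adjustment and a threshold of 0.05. No V segment passed in any comparison, where 0.00918% of all genes passed for GF-AOM against Control, 0% for GF-AOMS against GF-AOM and 0.734% for GF-AOMS against Control. At an unadjusted p under 0.05 the counts were 26 of 140 (18.6%, all genes 15.7%), 5 (3.57%, all genes 1.09%) and 16 (11.4%, all genes 16.2%). DESeq2 called 9, 0 and 4 of the 140 segments, all of them higher, against 284, 3 and 375 of all 10897 genes. The share called was larger among segments than among all genes for GF-AOM against Control, and smaller for GF-AOMS against Control. Directions of the DESeq2 calls over all genes are not given here. With limma on log2(FPKM + 1) the segments called were 0 in each comparison. The 4 that DESeq2 called for GF-AOMS against Control were Igkv14-111, Igkv8-19, Igkv15-103 and Ighv10-3, and the 9 for GF-AOM against Control were these and Igkv13-84, Igkv4-74, Igkv12-98, Ighv1-76 and Ighv14-2. Of these names Igkv12-98, Ighv1-76 and Ighv14-2 were chosen after their values were seen.

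For GF-AOM against Control, which the labels describe as germ-free against SPF mice or as AOM against none, the median log2 difference of the 140 segments was 0.61 (all genes -0.0038). It was 0.43 for heavy, 0.81 for kappa and 0.53 for lambda segments. Of the segments 99 had a log2 difference above 0 (49.5% of all genes did), and 24 were higher at an unadjusted p under 0.05 (17.1%, all genes 5.98%), 19 of them kappa and 5 heavy, while 2 were lower (1.43%, all genes 9.74%). A log2 difference of at least 1 was seen for 48 segments (34.3%, all genes 1.47%) and one of -1 or less for 10 (7.14%, all genes 1.1%). Large differences were thus more frequent than among all genes in both directions. Segments of a library share its summed V level, so these counts, here and in the other comparisons, are not counts of independent genes. The median was 0.30 with the colon position term, which leaves only Control 1 and Control 2 as reference, and 0.29 without GF-AOM 2. Without Control 1 edgeR called 1 segment (45 of all 10897 genes) and without Control 2 it called 4 (356 of all genes). No other omission of a library gave a segment call.

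In this comparison 5 segments had levels that did not overlap between the groups, all higher in GF-AOM (3.57%, all genes 0.303% higher and 0.762% in either direction), and none lay entirely lower (all genes 0.459%). Igkv8-19 (chr6:70340876-70341453, minus strand) lay at 1.43, 2.53 and 4.53 CPM in Control (lowest, median, highest), 6.00, 18.1 and 30.1 CPM in GF-AOM, and 1.33, 8.37 and 18.8 CPM in GF-AOMS. Its log2 difference was 2.65 (SE 0.53, adjusted p = 0.0792) with edgeR. Ighv10-3 lay at 0.215, 1.52 and 2.70 CPM in Control, 5.01, 10.2 and 100.2 CPM in GF-AOM, and 3.01, 5.44 and 18.7 CPM in GF-AOMS. Every GF library thus exceeded every Control library for Ighv10-3, also among the libraries other than GF-AOM 3. Its edgeR log2 difference against Control was 4.12 (SE 0.88, adjusted p = 0.0792) in GF-AOM and 2.57 (SE 0.83, adjusted p = 0.161) in GF-AOMS. With the position term, which leaves only Control 1 and Control 2 as reference, these were 3.61 (SE 1.40) and 2.06 (SE 1.27). The other 3 were Igkv14-111, Igkv15-103 and Ighv1-76, the last chosen after its values were seen, with edgeR log2 differences of 1.97, 1.89 and 1.95 (adjusted p = 0.115, 0.122 and 0.182).

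Igkv13-84 (chr6:68939602-68940067, plus strand) had the next smallest p. It lay at 3.13, 4.69 and 9.01 CPM in Control, 7.65, 17.4 and 30.7 CPM in GF-AOM, and 5.42, 8.56 and 21.5 CPM in GF-AOMS, with a log2 difference of 1.79 (SE 0.41, edgeR adjusted p = 0.0832) in GF-AOM against Control. Control and GF-AOM overlapped only between 7.65 and 9.01 CPM, and 46.88% of its 75-base windows were unique. The smallest p among lower segments went to Ighv1-58, Ighv2-2 and Ighv1-74, with edgeR log2 differences of -2.19 (SE 0.92), -1.80 (SE 0.83) and -1.68 (SE 0.90) and adjusted p of 0.283, 0.310 and 0.350. Ighv2-2, whose shares separated the groups, lay at 10.7, 26.1 and 130.4 CPM in Control and 4.23, 13.6 and 26.4 CPM in GF-AOM, so its levels overlapped.

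For GF-AOMS against GF-AOM, the comparison that adds smoke under both readings of the labels, the median log2 difference of the segments was -0.30 (all genes 0.01). It was -0.35 for heavy, -0.26 for kappa and -0.45 for lambda segments, and 45 of 140 were above 0 (53.6% of all genes were). All 5 segments with an unadjusted p under 0.05 were lower in GF-AOMS (3.57%, all genes 0.459%), and none was higher (all genes 0.633%). A log2 difference of -1 or less was seen for 20 segments (14.3%, all genes 0.284%) and one of at least 1 for 5 (3.57%, all genes 0.147%). No segment's levels separated the groups, as those of 0.0642% of all genes did (0.0551% higher, 0.00918% lower). This median rested on a few libraries: it was -0.93 without GF-AOMS 3, -0.05 without GF-AOM 2, -0.16 without GF-AOMS 1 and -0.19 without GF-AOMS 6.

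Igkv3-2 had the smallest p among lower segments of this comparison. It lay at 21.6, 73.8 and 744.7 CPM in GF-AOM (lowest, median, highest) and 20.97, 29.8 and 75.02 CPM in GF-AOMS, with an edgeR log2 difference of -2.075 (SE 0.76, adjusted p = 1). The high end of GF-AOM was the library GF-AOM 3. Igkv4-74 and Igkv4-72 followed with -2.05 (SE 0.84) and -1.81 (SE 0.75), also at an edgeR adjusted p of 1, and their highest libraries were GF-AOM 2 at 114.8 CPM and GF-AOM 3 at 159.4 CPM. The smallest p among higher segments went to Ighv2-9-1, Igkv4-79 and Igkv3-1, with edgeR log2 differences of 2.49 (SE 1.24), 2.36 (SE 1.19) and 1.33 (SE 0.93), each at an adjusted p of 1. A single GF-AOMS library stood far above the rest of its group for all 3. GF-AOMS 3 lay at 159.3 CPM for Ighv2-9-1 and 122.8 CPM for Igkv4-79, and GF-AOMS 2 at 115.2 CPM for Igkv3-1. The group medians were 4.02, 4.70 and 5.95 CPM.

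For GF-AOMS against Control, a comparison that shares the Control libraries with the first, the median log2 difference was 0.43 (all genes 0.0064), with 0.28 for heavy, 0.56 for kappa and 0.08 for lambda segments. Of the segments 93 were above 0 (51% of all genes were), 14 were higher at an unadjusted p under 0.05 (10%, all genes 6.93%) and 2 lower (1.43%, all genes 9.25%). A log2 difference of at least 1 was seen for 28 (20%, all genes 2.1%) and one of -1 or less for 16 (11.4%, all genes 1.49%). The median was 0.10 with the position term, 0.67 without Control 1, 0.23 without Control 4 and -0.29 without GF-AOMS 3, where its sign turned. Ighv10-3, higher in GF-AOMS, was the only segment with levels that did not overlap (0.714%, all genes 0.257% higher, 0.541% lower and 0.798% in either direction).

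Igkv14-111 (chr6:68256389-68256869, plus strand) had the smallest p of this comparison. It lay at 3.03, 9.81 and 18.6 CPM in Control (lowest, median, highest), 26.8, 44.2 and 49.4 CPM in GF-AOM, and 11.5, 21.6 and 128.7 CPM in GF-AOMS. Its edgeR log2 difference was 1.92 (SE 0.53, adjusted p = 0.101) in GF-AOMS against Control, and GF-AOMS overlapped Control while GF-AOM did not. Igkv8-19 and Igkv15-103 (chr6:68437440-68437925, plus strand) followed with 1.68 (SE 0.51, adjusted p = 0.127) and 1.64 (SE 0.52, adjusted p = 0.15) by edgeR. The smallest p among lower segments went to Ighv5-16, Ighv5-9-1 and Igkv4-58, with edgeR log2 differences of -1.79 (SE 0.67), -1.63 (SE 0.75) and -1.19 (SE 0.58) and adjusted p of 0.223, 0.300 and 0.322.

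The J segments of the table, which are the other recombined pieces, did not pass the edgeR test either (10 measured: 4 heavy, 4 kappa, 2 lambda). Igkj1 took 35.4% ± 10.7 of kappa J counts, Igkj2 28.0% ± 8.79, Igkj5 21.1% ± 9.11 and Igkj4 15.5% ± 12.0 (SD, n = 18). Igkj4 had the largest SD of the 4, with GF-AOM 3 at one end and Control 4 at the other. Iglj1 took 85.5% ± 13.2 of lambda J counts, and Control 6 and GF-AOM 4 lay far below the rest at 53.6 and 51.2%. Ighj3, named after its values were seen, took 10.5 to 15.6% of heavy J counts in Control, 13.9 to 24.3% in GF-AOM and 16.7 to 21.4% in GF-AOMS. Igha, the constant gene of IgA, made up 84.9% ± 8.94 of heavy constant counts in Control, 86.0% ± 4.24 in GF-AOM and 78.6% ± 8.99 in GF-AOMS (SD, n = 6 each), with overlapping ranges.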

How the data were processed

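RNA sequencing libraries of colorectal tissue (18, in 3 groups of 6) were analysed from 1 deposited table. Per the file headers it holds a whole-number read count and an FPKM value per gene and library, both made by the authors. Tools named by the submitters' processing notes are featureCounts and DESeq2, per the labels, with GRCm39 as the build. For the aligner, a name is not given in the sources used here. Gene positions match build GRCm38 instead: all 140 V segments have identical ends in GENCODE M21, so positions are given in GRCm38. The labels place all libraries in batch 1. Per the labels, RNA had an integrity number of at least 7.

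Counts were fitted with edgeR 4.0.16 in R 4.3.3 (TMM scaling, quasi-likelihood test, 15 residual degrees of freedom, two-sided, no covariate, no further filter). CPM values use the TMM scaling. Shares divide a segment's count by all V counts of its chain, and their 95% Wilson half-width was at most 0.992 percentage points. Sequences were compared with Biopython 1.88. The count test was tested on simulated data with changes placed in randomly drawn genes. No single outlying library was built in, so the test's behaviour on segments high in a single library was not tested. The alternatives were DESeq2 1.42.0, limma 3.58.1 on log2(FPKM + 1) and log2(FPKM + 0.1), other scalings, an FPKM filter, fits of only the groups compared, a replicate block, a position term for libraries with Hoxa13 under 10 CPM, and leaving out each library.

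Segments were named by a rule: the 6 highest mean shares per chain, shares of at least 15% in a library and 3 times the median, the 3 smallest p per direction where none is called, and the nearest and farthest from J. Members, marker lists and rule were chosen with earlier results of these data known.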

Additional observations from a re-analysis of the deposited data

Results flagged for a closer look

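Of 114 groups of 6 values examined, 26 had a highest library whose gap to the next was large against the group's whole range. Chance alone would give about 1 in 20 groups if they were independent, not selected and normally distributed. Here several segments were named for a high share in 1 library or for a small p, and shares of a chain are tied together, so the count of 26 cannot be set against that rate. In summed levels these were heavy V segments in GF-AOM 2 (1471 CPM) and GF-AOMS 3 (2230 CPM), and kappa V segments in GF-AOMS 3 (4315 CPM).

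The other values are shares of the chain's V counts. Heavy shares stood apart for Ighv1-81 in GF-AOMS 1 (11.6%), Ighv1-53 in Control 6 (7.10%) and GF-AOM 4 (11.7%), Ighv10-3 in Control 4 (1.71%) and GF-AOM 3 (18%), Ighv1-58 in GF-AOMS 5 (1.88%) and Ighv2-9-1 in GF-AOMS 3 (7.15%). Kappa shares stood apart for Igkv6-23 in GF-AOMS 4 (13.5%), Igkv3-2 in GF-AOM 3 (30.2%), Igkv10-94 in GF-AOM 4 (6.27%), Igkv13-84 in GF-AOM 1 (1.63%), Igkv4-79 in GF-AOMS 3 (2.85%) and Igkv3-1 in GF-AOMS 2 (5.86%). The same held for Igkv4-74 in Control 2 (0.912%) and GF-AOM 2 (3.23%), Igkv4-72 in Control 3 (4.20%), Igkv15-103 in Control 6 (1.94%), Igkv4-58 in Control 4 (11.2%) and Igkv2-137 in GF-AOM 3 (1.61%). Lambda shares stood apart for Iglv1 in GF-AOMS 3 (92.8%), Iglv2 in GF-AOM 6 (27.6%), and Iglv3 in Control 5 (5.94%) and GF-AOMS 2 (13.5%). The cause was not tested.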

How the results depend on the processing

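Of 276 alternative values 267 kept their direction and their side of the threshold or stayed within the spread between libraries. Another 5 moved and 4 were stronger. This rule counts a change of sign within the spread as unchanged, so the 267 do not show a stable direction. The counts of called segments were 0 in each comparison with edgeR, with DESeq2 size factors, with library totals only, with the FPKM filter, with fits of only the groups compared and with limma on both scales. DESeq2 called 9 for GF-AOM against Control (284 of all 10897 genes) and 4 for GF-AOMS against Control (375 of all genes). The cause was not tested. Leaving out each library gave 0 to 4 segment calls for GF-AOM against Control and 0 for the others. The calls were 1 without Control 1 (45 of all 10897 genes) and 4 without Control 2 (356 of all genes). With replicate number as a block the calls were 0, 0 and 0, and the numbers did not pair libraries (same-numbered libraries correlated between -0.619 and 0.517 in their deviations from group means). The colon position term and, chosen after seeing the data, leaving out the 4 Control libraries with low Hoxa13 also gave 0 calls. Both compare with Control 1 and Control 2 alone, so they are not separate checks. Leaving out single libraries moved the log2 difference of summed V levels for GF-AOM against Control between -0.13 and 0.65 (heavy), 0.50 and 1.09 (kappa) and -0.14 and 0.28 (lambda). For GF-AOMS against GF-AOM it moved between -0.98 and 0.21, -0.84 and -0.20, and -0.58 and -0.08, and for GF-AOMS against Control between -0.79 and 0.54, -0.14 and 0.71, and -0.50 and 0.03. Restricting to segments with a mean count of at least 1000 (12 heavy, 32 kappa) left fewer segments and lowered the heavy effective number to 7.71, 8.50 and 8.40 (Control, GF-AOM, GF-AOMS) and the kappa one to 16.0, 16.4 and 17.3, of which the GF-AOM value moved by less than the SD between its libraries. The planned addition of V pseudogenes was not run, since the table types no gene as one. Depth limits heavy shares most in Control 4, with 8076 heavy V counts.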
